A study of Mus musculus with 12 samples.

Results

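The matrix metalloproteinases (Mmp), the ADAMTS proteases, the tissue inhibitors of metalloproteinases (Timp) and the HtrA serine proteases were taken as 1 group of genes by their names, and 50 of the 37583 genes in the deposited table belonged to it. They comprised 23 Mmp, 19 Adamts, 4 Timp and 4 Htra genes. The genes were measured in blood of wild type mice that had received a burn together with a tenotomy, the cutting of a tendon, and the series title ties this injury to heterotopic ossification, bone that forms in soft tissue. The blood was enriched on a microfluidic iChip, its RNA was sequenced as total RNA, and by the labels the lysed material was circulating mesenchymal progenitors (cMPCs) mixed with blood cells. There were 4 libraries each at 6 h, 1 day and 7 days after injury (6h, Day1 and Day7). All 3 groups carried the injury, an uninjured group was not analysed here, and the labels hold no sex, age or strain of the mice. Nothing in the labels says that replicates were separate animals, so p-values measure only the spread between these libraries, which may be technical.

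Mmp proteins are zinc proteases that cut collagens and other matrix proteins, and most are made as inactive precursors. Timp proteins block them by sitting in the active site, and Timp3, which binds to the matrix, also blocks ADAMTS proteases. ADAMTS proteins include enzymes that trim procollagens, such as Adamts2, and enzymes that cut proteoglycans, such as Adamts1 and Adamts5. Htra1 and Htra3 are secreted serine proteases that act on matrix proteins, while Htra2 resides in mitochondria. Neutrophils carry Mmp8, Mmp9 and Mmp25 in their granules or on their membrane, and fibroblasts and related stromal cells are the known source of Mmp2, Mmp14, most ADAMTS proteases, Timp1 to Timp3, Htra1 and Htra3. By this knowledge 3 genes were set down as neutrophil members, 31 as stromal members and 16 as other members.

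Libraries held 5098395 to 12379041 reads, of which 16.1% to 70.3% fell on haemoglobin genes, and 7631 to 16647 genes had a read. The fewest genes were detected in 6h replicate 1 and Day7 replicate 3. Reads of Y-linked genes occurred in 6h replicates 3 and 4 and in Day1 replicates 2, 3 and 4, and were absent from 6h replicates 1 and 2, from Day1 replicate 1 and from all of Day7, so time and Y-linked status were unevenly mixed. Values below are the deposited values, which are reads multiplied by a factor that the authors set for each library. 1 read was worth 0.0314 in Day1 replicate 2 and 0.617 in Day7 replicate 3, so low levels were least resolved in the latter.

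The families drew 81992 of 99797430 reads in all. Stromal members took 96.3% of these, and Timp2 alone took 48.5%, whereas the neutrophil members had 789 reads and the other members 2267. No read was found for 8 members (Adamts13, Adamts18, Mmp10, Mmp1a, Mmp1b, Mmp20, Mmp24 and Mmp25). The filter on low values asked that 4 or more libraries reach a value of 1, and 18 members passed it, 16 of them stromal, together with Mmp9 and Htra2, and the other 32 were not tested. Mmp8 was among those that failed this filter.

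**Figure D1:**
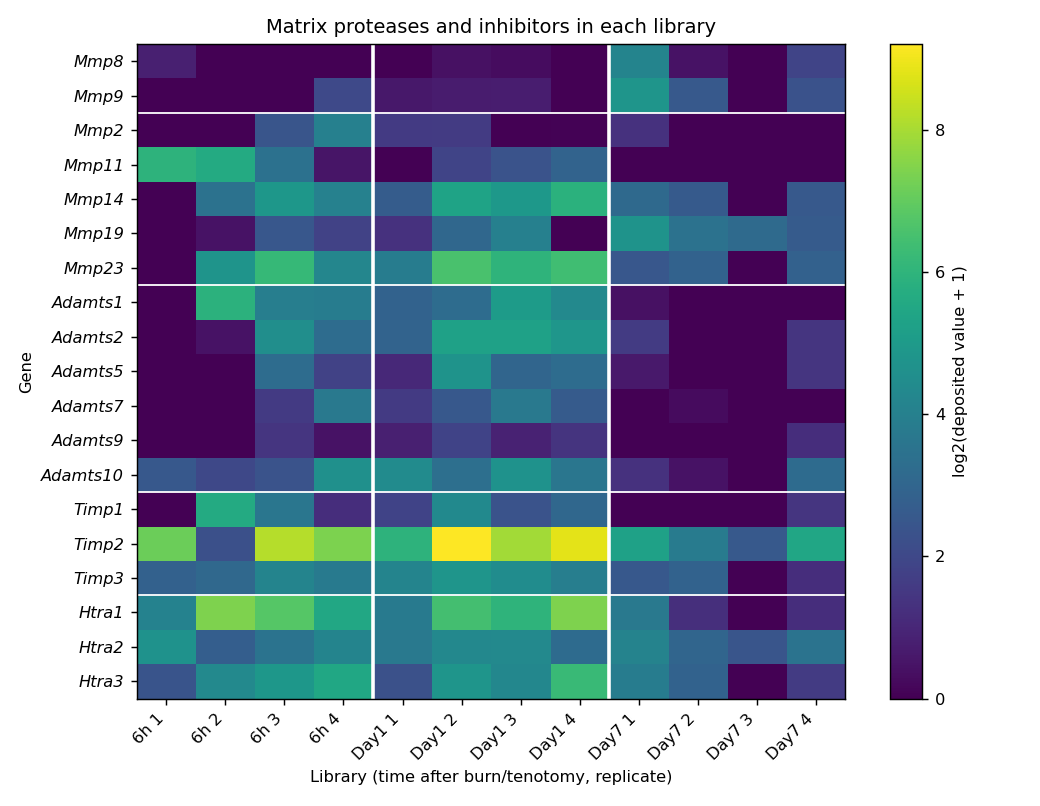
Level of the 18 tested genes and Mmp8 (rows) in each of the 12 libraries (columns, by time after injury and replicate), coloured by log2(deposited value + 1). Timp2 is the brightest row at Day1 (60.6 to 590.4 as deposited values), most stromal rows are darker at Day7 than at Day1, Mmp19 (5.32 to 25.7 at Day7) is an exception, and Mmp8 and Mmp9 are brightest in Day7 replicate 1.

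Per kilobase of the deposited gene length, the scale on which genes can be compared, Timp2 led at Day1 with a level of 82.7 ± 57.2 per kb (SD, n = 4). Mmp23 (25.7 ± 14.4 per kb), Htra1 (24.6 ± 19.6 per kb) and the membrane-bound Mmp14 (12.8 ± 8.53 per kb), which activates Mmp2, followed, and neighbours in this order differed by less than the larger of their SDs. Mmp9 stood near the bottom at Day1 with 0.128 ± 0.0883 per kb and at 2.55 ± 3.46 per kb at Day7. Over the 4 libraries of each time the deposited values of the stromal members summed to between 232 and 625 at 6h, between 158 and 992 at Day1, and between 23.4 and 113 at Day7. The lowest Day1 sum, 158, came from replicate 1, the Day1 library without Y-linked reads, and the other 3 Day1 libraries held 586 to 992. Replicate 1 also had the fewest reads (5257418) and the highest haemoglobin share (64.1%) of the Day1 libraries.

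Among the inhibitors, Timp2 was by far the most abundant and fell between Day1 and Day7. Timp2 binds latent Mmp2 at the cell surface and thereby takes part in its activation as well as in its inhibition. Its deposited values were 139, 3.79, 287 and 168 at 6h, 60.6, 590.4, 244 and 456 at Day1, and 37.6, 13.4, 4.93 and 42.6 at Day7. Every Day7 library lay below every Day1 library, while 6h replicate 2 lay below all 4 Day7 libraries, so that 6h and Day7 overlapped. The log2 difference was -3.70 for Day7 versus Day1 (SE 1.07, limma adjusted p = 0.0445) and -1.96 for Day7 versus 6h (SE 1.07, limma adjusted p = 0.338).

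Timp3 had deposited values of 6.35, 7.57, 16.7 and 12.6 at 6h, 16.9, 26.9, 21.5 and 14.2 at Day1, and 4.82, 6.51, 0 and 1.33 at Day7. The Day7 libraries were again all below those of Day1, but the log2 difference of -2.68 (SE 0.81) missed the threshold of 0.05 (limma adjusted p = 0.0503). Its exons overlap Syn3 on the opposite strand by 1733 bases, and the strand setting of the counting is not given in the sources used here, so its level is uncertain. Timp1, an inhibitor induced in wounds, ranged up to 48.9 at 6h, between 2.60 and 19.6 at Day1 and up to 1.66 at Day7. It had reads in 1 Day7 library and in all 4 of Day1, without passing the test. Timp4 had 17 reads over the 12 libraries, 16 of them in Day7 replicate 1.

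Of the HtrA proteases, Htra1 passed the test in both comparisons with Day7. Htra1 cuts fibronectin and proteoglycans and binds TGF-beta family ligands. Its deposited values were 16.1, 170.4, 109 and 44.5 at 6h, 13.0, 87.3, 62.8 and 173 at Day1, and 12.2, 1.34, 0 and 1.33 at Day7. The highest Day7 library, replicate 1, lay just below the lowest Day1 library, also replicate 1, and the other 3 were near 0. Levels averaged 85.0 ± 68.9 at 6h, 83.9 ± 66.7 at Day1 and 3.71 ± 5.68 at Day7 (SD, n = 4). The log2 difference was -4.38 for Day7 versus Day1 (SE 0.95, limma adjusted p = 0.0185), -4.41 for Day7 versus 6h (SE 0.95, limma adjusted p = 0.0285) and -0.02 for Day1 versus 6h (SE 0.95, limma adjusted p = 0.997). Both falls share the Day7 libraries and are therefore not independent. Htra1 was also the only member past the moderated F test over the 3 times (limma adjusted p = 0.0203), which called 2.55% of all tested genes.

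Htra3, a relative of Htra1, lay between 4.29 and 43.7 at 6h, between 3.83 and 75.0 at Day1 and at most at 13.8 at Day7. Its lowest Day1 library was inside the Day7 range, and it did not pass. The mitochondrial Htra2 had overlapping levels at all 3 times, with 14.5 ± 8.32 at 6h, 14.6 ± 5.35 at Day1 and 9.52 ± 5.18 at Day7 (SD, n = 4), and it had reads in every library. Its exons overlap Aup1 and Loxl3 on the opposite strand. Htra4, a placental protease, had 2 reads.

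Adamts2 and Adamts1 fell between Day1 and Day7. Adamts2, which removes the N-terminal propeptide of fibrillar procollagens, had deposited values of 0, 0.379, 22.7 and 8.57 at 6h, 6.67, 37.6, 37.7 and 27.2 at Day1, and 2.06, 0, 0 and 1.66 at Day7. All Day1 libraries were above all Day7 libraries, and the 6h libraries were split, with replicates 3 and 4 high and replicates 1 and 2 near 0. The log2 difference for Day7 versus Day1 was -3.82 (SE 0.99, limma adjusted p = 0.0331). Its Day1 versus 6h difference of 2.50 (SE 0.99) had an unadjusted p of 0.0182 in limma and did not pass after adjustment (limma adjusted p = 0.37).

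Adamts1, which cleaves versican and aggrecan, had deposited values of 0, 59.1, 14.2 and 13.5 at 6h, 6.43, 8.54, 32.1 and 19.0 at Day1, and 0.344, 0, 0 and 0 at Day7. At Day7 it had 5 reads in replicate 1 and none in the other 3 libraries. The log2 difference for Day7 versus Day1 was -3.77 (SE 1.00, limma adjusted p = 0.0336), and for Day7 versus 6h it was -3.32 (SE 1.00, limma adjusted p = 0.0881). Adamts1 and Adamts2 differed in 6h replicate 2, where Adamts1 had its highest value of all 12 libraries and Adamts2 had 1 read.

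The other 4 tested ADAMTS genes were Adamts5, Adamts7, Adamts9 and Adamts10, and none passed. Adamts5, the other major aggrecan-cutting enzyme, reached 8.45 at 6h, lay between 1.11 and 25.7 at Day1 and reached 1.66 at Day7. Adamts10, a binder of fibrillin microfibrils, lay between 9.23 and 25.2 at Day1 and between 0 and 8.31 at Day7, and these ranges did not overlap. Adamts7 also did not overlap between Day1 and Day7, but its exons overlap Tbc1d2b on the opposite strand, as those of Adamts9 overlap A730049H05Rik and Gm15737. Of the untested ADAMTS genes, Adamts15 (111 of its 128 reads in Day1 replicate 3) and Adamts16 (all 178 reads in Day1 replicate 4) rested on single libraries.

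Among the Mmp genes, Mmp23 fell between Day1 and Day7. Mmp23 is an atypical member of the family that is anchored in membranes by its N-terminus. Its deposited values were 0, 26.5, 71.5 and 17.6 at 6h, 13.5, 94.0, 63.2 and 83.1 at Day1, and 4.68, 6.51, 0 and 6.32 at Day7. The Day1 libraries were all above the Day7 libraries, and 6h replicate 1 had no read. The log2 difference for Day7 versus Day1 was -3.63 (SE 1.07, limma adjusted p = 0.0458). Mmp14 had 0, 10.2, 28.5 and 15.5 at 6h, 5.44, 39.6, 29.3 and 58.4 at Day1, and 7.91, 5.17, 0 and 4.99 at Day7, with Day1 replicate 1 inside the Day7 range, and did not pass.

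Mmp2, gelatinase A and a defining product of fibroblasts, was scarce. Its deposited values were 0, 0, 4.35 and 15.2 at 6h, 1.98, 2.01, 0 and 0.0389 at Day1, and 1.51, 0, 0 and 0 at Day7. Reads were present in 2 of 4 libraries at 6h, 3 at Day1 and 1 at Day7. The log2 difference was -0.47 for Day7 versus Day1 (SE 0.76, limma adjusted p = 0.704), -1.28 for Day7 versus 6h (SE 0.76, limma adjusted p = 0.382) and -0.80 for Day1 versus 6h (SE 0.76, limma adjusted p = 0.72). Whether Mmp2 differs in its course from the members that fell was not tested.

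Mmp11 and Mmp19 had other orders in time. Mmp11 (stromelysin 3, made by stromal cells next to epithelia and tumours) had deposited values of 61.4, 48.9, 9.90 and 0.42 at 6h, 0, 2.7, 4.17 and 6.54 at Day1, and 0 in all 4 Day7 libraries. Summed over each group's reads, Mmp11 was at least 31.9-fold lower at Day7 than at Day1 and at least 143-fold lower than at 6h, taking a floor of 3 reads over the Day7 group. Without the library with the most reads of the higher group these bounds were 21.6 and 61.3. These bounds pool the reads of a group and do not measure the spread between its libraries. Mmp11 did not pass in limma for Day7 versus 6h (adjusted p = 0.058). It did not pass for Day7 versus Day1 either (limma adjusted p = 0.236), and Day1 replicate 1 was also at 0. Its exons overlap Chchd10 on the opposite strand. Mmp19, a protease of fibroblasts and myeloid cells, ranged from 0 to 4.59 in the 6h group, from 0 to 15.2 in the Day1 group and from 5.32 to 25.7 in the Day7 group. It was the only tested member whose Day7 libraries all lay above those of 6h, a pattern shown by 3.45% of all tested genes, and it did not pass (limma adjusted p = 0.196). Its exons overlap Tmem198b and Gm47093 on the opposite strand.

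The neutrophil members were low, and their highest values were in Day7 replicate 1. Mmp9, gelatinase B of neutrophil granules, had deposited values of 0, 0, 0 and 3.06 at 6h, 0.494, 0.628, 0.683 and 0 at Day1, and 27.0, 4.98, 0 and 3.99 at Day7. In the Day7 group 3 libraries were above all of Day1 and 1 was at 0, where 1 read was worth 0.617. The log2 difference was 1.92 for Day7 versus Day1 (SE 0.80, limma adjusted p = 0.116), 1.92 for Day7 versus 6h (SE 0.80, limma adjusted p = 0.202) and 0.00 for Day1 versus 6h. Mmp8, neutrophil collagenase, had deposited values of 0.747, 0, 0 and 0 at 6h, 0, 0.345, 0.228 and 0 at Day1, and 17.0, 0.383, 0 and 2.66 at Day7. Day7 replicate 1 held 89.8% of its 275 reads, so the Day7 mean of 5.01 ± 8.07 (SD, n = 4) is set by that library. The third neutrophil member, Mmp25, a protease anchored to the neutrophil membrane, had no read.

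**Figure D2:**
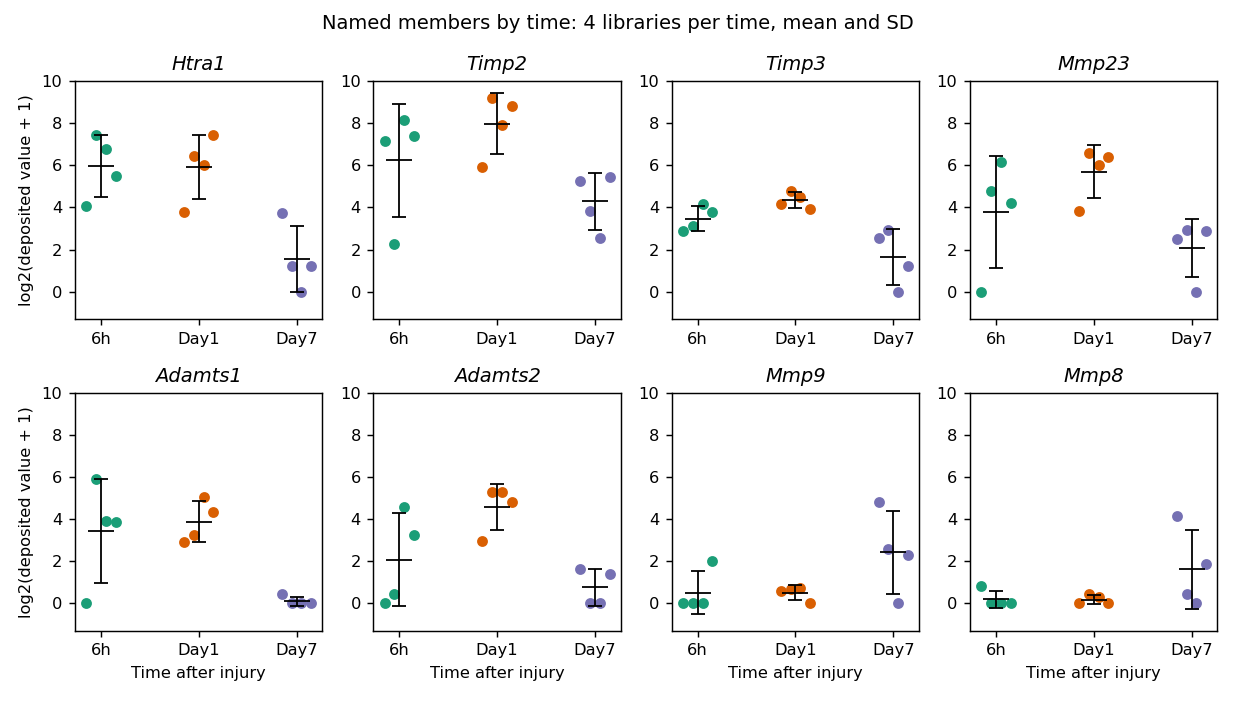
Level of 8 genes at 6h, Day1 and Day7, as log2(deposited value + 1) on the y axis, with 1 point per library (4 per time) and the mean and SD as bars. The Day7 points of Htra1, Timp2, Timp3, Mmp23, Adamts1 and Adamts2 all lie below the Day1 points, whereas Mmp9 and Mmp8 are highest in Day7 replicate 1 (27.0 and 17.0 as deposited values) and at 0 in Day7 replicate 3.

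Several further Mmp genes had few reads and were not tested. Mmp12, macrophage elastase, had 25 reads, all in 6h replicate 1. That library also had the highest values of the macrophage genes C1qa (269), C1qb (855) and Cd68 (137), whose part in the Mmp12 reads was not tested. Mmp13, collagenase 3 of chondrocytes and osteoblasts, reached 10.5 and 6.98 in Day7 replicates 3 and 4 and at most 2.30 elsewhere. Those Day7 libraries held 17 and 21 of its reads, and Day1 replicate 4 held 59. A read was worth 0.617 and 0.333 in the former and 0.0389 in the latter. Their totals were 9096780, 9089586 and 9677379 reads, so the order of Mmp13 depends on the scaling. Mmp3, stromelysin 1, had 18 and 22 reads in Day1 replicates 2 and 4 and none in the other libraries. Mmp16, a membrane-bound relative of Mmp14, had 3, 62, 6 and 201 reads in the Day1 libraries, 3 in Day7 replicate 4 and none at 6h.

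The members were then counted in each comparison of the fit over all 11211 tested genes, with p-values adjusted by Benjamini-Hochberg over all of them. Between 6h and Day1 limma called 0 of 18 members in either direction, where it called 0.169% of all tested genes, all of them higher at Day1. No member had Day1 libraries wholly above or wholly below those of 6h, against 5.52% and 0.883% of all tested genes. At an unadjusted p under 0.05 there was 1 member higher (Adamts2) and 1 lower (Mmp11), against 9.77% and 1.39% of all tested genes. Neither edgeR nor DESeq2 called a member. The median log2 difference of the 18 was 0.82, against 0.52 over all tested genes.

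Between Day1 and Day7, 5 of 18 tested members fell (Htra1, Adamts2, Adamts1, Timp2 and Mmp23), whereas 3.59% of all tested genes fell and 5.78% were called in either direction. All 5 were stromal members, and 16 of the 18 differences were below 0. The median log2 difference of the members was -2.56, against -0.48 over all tested genes. The Day7 libraries lay wholly below the Day1 libraries for 9 members (the 5 above with Timp1, Timp3, Adamts7 and Adamts10), a pattern seen in 14.5% of all tested genes. No member's Day7 libraries lay wholly above those of Day1, against 8.47% of all genes. No member was called higher in limma, where 2.19% of all genes were. At an unadjusted p under 0.05, 12 members were lower and 1, Mmp9, was higher, against 18% and 11.1% of all genes, and edgeR and DESeq2 called none higher.

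This count of 5 rested on many of the libraries. It became 0 without Day1 replicate 2, 3 or 4 or without Day7 replicate 2 or 3, became 1 without Day7 replicate 4, and became 8 without 6h replicate 1 or 4. With a term for Y-linked reads it was 0, at log2 differences of -3.31 for Htra1, -2.95 for Adamts1, -1.54 for Adamts2, -1.64 for Mmp23 and -1.5 for Timp2 (limma adjusted p = 0.199 to 0.537), and that fit called none of all tested genes lower at Day7. In edgeR the count was 0, where 1 gene in all was called lower, and in DESeq2 it was 12. All 5 differences were below 0 in each of 27 alternative settings. In several of these the difference was bound to stay as it was, so they do not test its sign. These were the other filters, TMM scaling, fits of 2 groups, the replicate block and the runs without a 6h library.

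Between 6h and Day7, 1 of 18 members fell, Htra1, whereas 0.277% of all tested genes fell. No member rose in limma, where 0.607% of all genes did, and 2 (Mmp9 and Mmp19) were higher at an unadjusted p under 0.05, against 12.1% of all genes. In edgeR and DESeq2 none rose. The median log2 difference of the members was -1.47, against 0.13 over all tested genes. The Day7 libraries lay wholly below the 6h libraries for 2 members, Htra1 and Mmp11, against 2.38% of all tested genes. At an unadjusted p under 0.05, 6 members were lower, against 5.9% of all tested genes. The call of Htra1 was lost without 6h replicate 2 or 3, without Day7 replicate 3 or 4, and with the term for Y-linked reads.

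**Figure D3:**
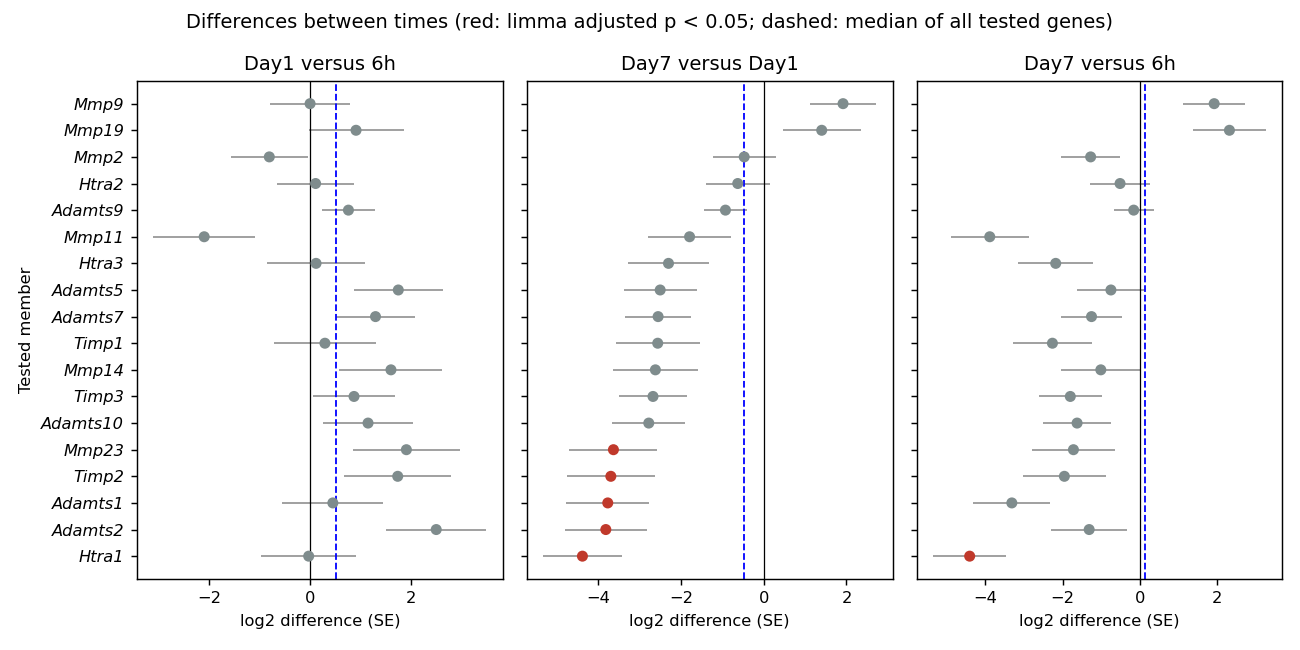
Log2 difference with its SE (x axis) for each of the 18 tested genes (rows) in the 3 comparisons, from limma over all 12 libraries. Red marks an adjusted p under 0.05 and the dashed line the median of all tested genes (0.52, -0.48 and 0.13). In the middle panel 16 of the 18 points lie below 0 and Mmp9 and Mmp19 above it.

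To tell neutrophil from stromal members, each tested member was set against marker lists that hold none of the members. Stromal fibroblast markers, a list of 20 genes such as Col1a1, Col3a1 and Dcn, summed to deposited values between 454 and 2545 at 6h, between 607 and 4065 at Day1 and between 34.5 and 790 at Day7. Of its 17 tested genes 10 were lower at Day7 than at Day1 and none was higher, where 3.59% of all tested genes were lower and 2.19% higher. List calls were not repeated in other settings. Of all tested genes, edgeR called 1 lower, the fit with a term for Y-linked reads none, and DESeq2 1251. Of the 17 differences 16 were below 0 and 1, that of Lum, was above it. Lum had 10.3, 5.74, 0 and 3.66 at Day7 and at most 1.38 at Day1. Serpinf1 alone gave 376 of the sum of 719 in Day7 replicate 1. The list genes Pdgfra, Pdgfrb and Postn failed the filter on low values. Mesothelial markers such as Msln moved with the fibroblast list, and 8 of 11 were lower at Day7 than at Day1. Their sums lay between 25.4 and 2332 at 6h, between 560 and 2725 at Day1 and between 4.32 and 228 at Day7. Keratinocyte markers also had lower levels at Day7, with sums between 71.2 and 391.9 at Day1 and at most 10.2 at Day7, and 2 of 5 tested were called lower. The part of mesothelial cells and keratinocytes in the falls of the stromal members was not tested, and in bulk RNA fewer cells of a type and less RNA per cell cannot be told apart.

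Mature neutrophil markers, a list of 17 genes in the table, summed to between 58.2 and 336 at 6h, between 30.3 and 148 at Day1 and between 435 and 973 at Day7, and 3 of 12 tested were higher at Day7 than at Day1 (2.19% of all tested genes). In edgeR and with the term for Y-linked reads no tested gene was called higher at Day7 than at Day1, against 525 in DESeq2. Of the 12 differences 11 were above 0 and 1, that of Hdc, was below it. Few genes made up some sums. Mxd1 gave 250 of the 517 in Day7 replicate 3, and Mxd1 and Clec4d gave 158 and 162 of the 435 in Day7 replicate 2. S100a8, a calcium-binding protein of neutrophils, reached 292 in Day7 replicate 1, the library with the highest Mmp8 and Mmp9. The same library had the highest sum of 7 hepatocyte markers, 15278, against 93.2, 440 and 4414 in the other Day7 libraries and at most 4318 at Day1, and the part of liver RNA in its Mmp8 and Mmp9 reads was not tested. Defining neutrophil genes were nevertheless absent or low. Ly6g and the granule genes Mpo, Elane and Ltf were at 0 in all libraries, and of 13 granule and precursor genes 1, Lcn2, passed the filter. Its log2 difference for Day7 versus Day1 was -1.68 and was not called. Platelet markers rose as well, in 5 of 8 genes for Day7 versus Day1, with sums between 852 and 5690 at Day1 and between 21584 and 36549 at Day7, and their part in the members' values was not tested.

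Correlations over the 12 libraries were computed between each of the 18 members and the mean log2 level of both lists, 36 relations in all, with permutation p-values adjusted by Benjamini-Hochberg. Because the libraries differ by time, r was also computed after subtracting the mean of each time, and within the 7 libraries that lacked Y-linked reads. With the fibroblast list, Timp2 had r = 0.94 (permutation p = 1e-05, the smallest the resampling can give; adjusted p = 0.00018; Spearman's rho 0.95, permutation p = 3e-05). Without the 2 libraries farthest from the median of the list (Day1 replicate 2 and Day7 replicate 3) r was 0.91, within times it was 0.90, and among the 7 libraries it was 0.83. Adamts2 (r = 0.96, rho 0.92) and Adamts5 (r = 0.95, rho 0.98) followed the list as closely, at 0.91 for both within times.

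Htra1 followed it less closely, at r = 0.67 (permutation p = 0.0198, adjusted p = 0.0508; rho 0.59, permutation p = 0.0506), and at 0.52 without the 2 farthest libraries, 0.43 within times and 0.16 among the 7 libraries. Mmp11 (r = 0.11), Mmp19 (r = -0.03) and Mmp2 (r = 0.39) showed no relation past the threshold (adjusted permutation p = 0.764, 0.913 and 0.325). Adamts1, although called lower at Day7 than at Day1, and Timp1 did not pass either (r = 0.53 and 0.45, adjusted permutation p = 0.161 and 0.227). For Adamts1 r was 0.035 within times and -0.047 among the 7 libraries. A test of the difference between 2 such correlations was not run. For Htra1, the library that stood off the line was 6h replicate 2, and r without it was not computed. There Htra1, Adamts1 and Timp1 reached 170.4, 59.1 and 48.9, each the highest or second highest of its gene, while Timp2 and Adamts2 were at 3.79 and 0.379. The same library held Sparc, a matrix glycoprotein, at 602 but Col1a1 and Col3a1 at 0.379 each and Dcn at 10.6.

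With the neutrophil list, Mmp9 had r = 0.87 (permutation p = 0.00025, adjusted p = 0.00225; rho 0.76, permutation p = 0.00623). Without Day7 replicates 1 and 4, the libraries farthest from the median of that list, r was 0.68, within times it was 0.77 and among the 7 libraries without Y-linked reads it was 0.86. Within times 2 members of other classes also went with the neutrophil list, Htra2 at 0.84 and Adamts10 at 0.70, although over all 12 libraries their r was 0.25 and -0.19. With the fibroblast list Mmp9 had r = -0.19 (adjusted permutation p = 0.628). Mmp19, set down as stromal, had r = 0.60 with the neutrophil list (permutation p = 0.0377, adjusted p = 0.0797). Timp1 had r = -0.71 with it (permutation p = 0.00979, adjusted p = 0.0352; rho -0.79), and -0.48 within times.

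**Figure D4:**
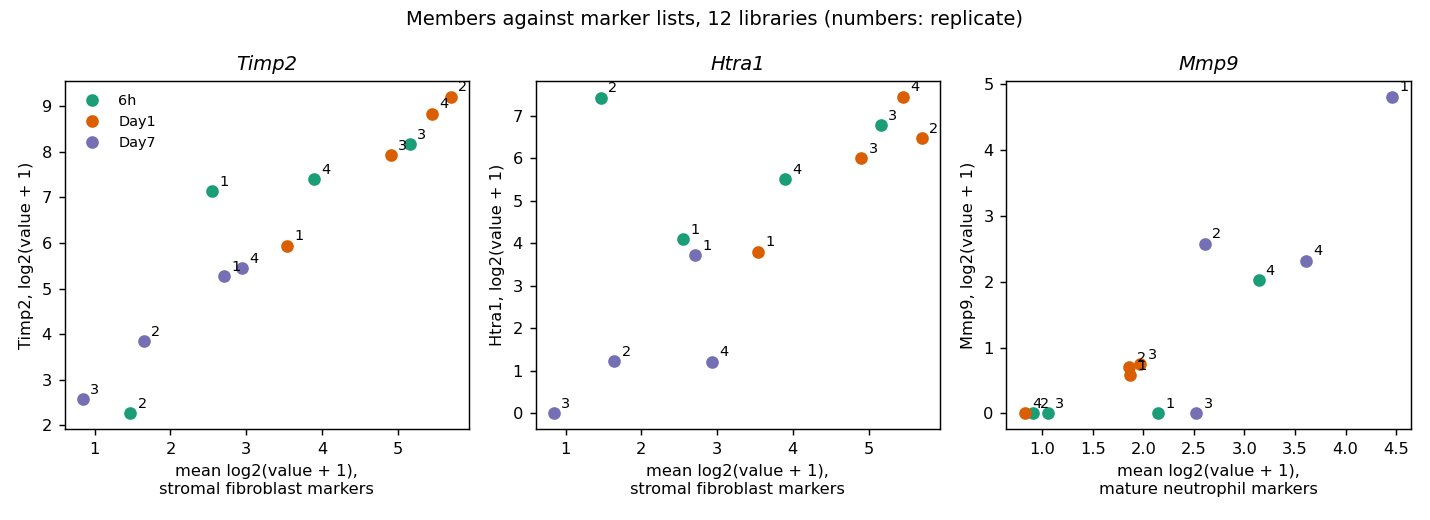
Level of Timp2, Htra1 and Mmp9 (y axes, log2(deposited value + 1)) against the mean log2 level of the fibroblast list (left and middle) or the mature neutrophil list (right), 1 point per library with its replicate number and coloured by time. Timp2 rises with the list (r = 0.94), 6h replicate 2 lies far above the other points of similar list level for Htra1 (r = 0.67), and Mmp9 rises to Day7 replicate 1 (r = 0.87).

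Among 4346 tested genes outside the families with a mean value of at least 10, those most like Htra1, Timp3, Mmp9 and Mmp8 over the 12 libraries were listed by Pearson's r of log2 values, as a description. Nearest to Htra1 were Id3 (0.96), Fkbp5 (0.95), Bmp1 (0.94), Serpinh1 (0.94) and Sbsn (0.94). Nearest to Timp3 were Pigyl (0.96), Gfpt2, Gsdmd, Pcolce and Emp3 (0.91). Mmp9 was nearest to 1110004F10Rik (0.87), Rchy1, Stat5b, AI316807 and 6430548M08Rik (0.86). Mmp8 was nearest to Hamp2 (0.88), Sepp1, Ugt2b36, Cyp2c68 and Slc27a5 (0.78), of which Hamp2, Ugt2b36, Cyp2c68 and Slc27a5 are liver genes, not neutrophil genes. With so many genes and 12 libraries that share time and depth, high values of r arise readily.

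Other genes that act with these proteases were taken from 6 lists. Their calls are those of the main limma fit and were not repeated in other settings. In the list of activators, inhibitors and clearance factors, 3 of 8 tested genes were lower at Day7 than at Day1 and none was higher. Of all tested genes 3.59% were lower and 2.19% higher in that comparison. Pcolce, which enhances the cutting of procollagen C-propeptides, had 148 ± 104 at Day1 and 7.69 ± 5.02 at Day7 (SD, n = 4; log2 difference -4.12, limma adjusted p = 0.0177). Lrp1, the receptor that clears protease and inhibitor complexes, had 84.0 ± 38.9 and 14.3 ± 14 (limma adjusted p = 0.0499), and Spock2, a testican, had 9.97 ± 8.21 and no read at Day7 (limma adjusted p = 0.0299). In the list of ADAMTS-like proteins, which resemble ADAMTS proteases but lack the protease domain, 2 of 3 were lower at Day7 than at Day1, Adamtsl5 (40.0 ± 16.2 against 1.5 ± 1.11) and Adamtsl1 (20.04 ± 12.2 against 1.40 ± 2.01).

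Among membrane ADAM proteases 1 of 8 was lower at Day7 in both comparisons, Adam33, at 49.1 ± 34.6 at 6h, 52.1 ± 21.0 at Day1 and 1.43 ± 1.53 at Day7 (SD, n = 4). Of all tested genes 3.59% were lower at Day7 than at Day1, and 0.277% were lower at Day7 than at 6h. Among matrix substrates Hspg2, which encodes perlecan, was lower at Day7 (21.0 ± 15.5 at Day1, 0.433 ± 0.821 at Day7) and Thbs1, a glycoprotein also stored in platelets, was higher (173 ± 90.7 and 1676 ± 473). The plasminogen system yields the protease plasmin, which activates several Mmp precursors. Of its 7 tested genes 2 were higher at Day7 than at Day1 (2.19% of all tested genes) and none lower (3.59%). These were the inhibitors Serpine2 (13.7 ± 7.23 at Day1, 130.2 ± 44.8 at Day7) and Serpinb2 (1.80 ± 1.70 and 25.4 ± 18.3). Serpinf2, the liver-made inhibitor of plasmin, was higher at Day1 (57.5 ± 45.6) and at Day7 (137 ± 198) than at 6h (0.015 ± 0.03). No tested gene of 10 cathepsins and lysosomal proteases passed in limma in any comparison. At an unadjusted p under 0.05, 3 were higher and 1 lower at Day7 than at Day1, against 11.1% and 18% of all tested genes.

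Promoter windows from 250 bases before to 50 after the annotated start were taken from RefSeq (build GRCm38.p6), and 34 of the 50 members matched, with 37 windows. They were searched on both strands for AP-1 letters (TGANTCA), for an Sp1 site (GGGCGG) and for an ETS site (AGGAAG). The element bound by Fos and Jun proteins reads TGAGTCA or TGACTCA. The letters searched for were wider, and the match in Mmp20 was TGAATCA. AP-1 letters were in 7.81% of all 32851 windows and in 8 of the 37 member windows (21.6%). These 8 belonged to Mmp1a, Mmp1b, Mmp3, Mmp7, Mmp10, Mmp12, Mmp13 and Mmp20, all on chromosome 9, and each of these genes failed the filter on low values. Of 12 windows of tested members 0 held AP-1 letters and 10 held Sp1 letters (83.3%, against 51.4% of all member windows and 35.7% of all windows). Mmp23 was counted with each of its windows, and Mmp2, Mmp9, Mmp19, Adamts5, Adamts7, Adamts10 and Htra2 had none. A share over the windows of all tested genes was not computed. Whether the Sp1 share is particular to these members was therefore not tested. ETS letters were in 45.9% of member windows, 33.3% of those of tested members and 35.4% of all windows. The 250 upstream bases of Htra1 (chr7:130935953-130936202, plus strand) and Timp2 (chr11:118355412-118355661, minus strand) are shown as examples of members that fell, and those of Mmp3 (chr9:7445572-7445821, plus strand) and Mmp13 (chr9:7272264-7272513, plus strand) as examples of members that failed the filter. Capitals mark the Sp1 letters, on either strand, in the first pair and the AP-1 letters in the second pair.
Htra1: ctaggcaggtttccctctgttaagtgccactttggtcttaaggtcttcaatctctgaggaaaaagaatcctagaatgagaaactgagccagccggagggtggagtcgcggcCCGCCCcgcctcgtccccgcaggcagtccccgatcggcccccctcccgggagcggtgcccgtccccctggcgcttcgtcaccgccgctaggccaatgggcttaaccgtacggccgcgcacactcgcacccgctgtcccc
Timp2: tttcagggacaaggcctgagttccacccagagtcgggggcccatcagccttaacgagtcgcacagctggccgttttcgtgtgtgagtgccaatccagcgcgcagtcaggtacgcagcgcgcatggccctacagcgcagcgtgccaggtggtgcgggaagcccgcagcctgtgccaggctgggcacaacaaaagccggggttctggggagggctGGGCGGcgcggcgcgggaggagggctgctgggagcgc
Mmp3: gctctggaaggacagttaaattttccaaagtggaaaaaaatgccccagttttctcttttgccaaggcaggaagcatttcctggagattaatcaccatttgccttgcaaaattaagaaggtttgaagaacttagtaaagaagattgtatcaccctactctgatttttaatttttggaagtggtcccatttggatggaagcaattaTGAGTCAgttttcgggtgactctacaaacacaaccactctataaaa
Mmp13: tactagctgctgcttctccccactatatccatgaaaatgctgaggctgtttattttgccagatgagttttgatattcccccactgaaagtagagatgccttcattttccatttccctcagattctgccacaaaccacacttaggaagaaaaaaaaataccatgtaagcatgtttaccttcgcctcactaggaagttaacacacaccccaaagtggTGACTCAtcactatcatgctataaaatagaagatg
The AP-1 letters began 46 bases before the start in Mmp3 and 35 bases before it in Mmp13. A match describes the letters and not the binding of a factor.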

How the data were processed

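Total RNA libraries of iChip-enriched mouse blood were analysed, 4 at each of 3 times, grouped by their titles. The deposited table gives a signal per gene that the authors named CPM. STAR 2.7.10, HTSeq 2.0.1 and the build mm9 are listed per the submitters' processing notes, and the scaling step is not given in the sources used here. Columns sum to unequal totals, so they are not plain CPM. Whole reads were recovered from the steps of each column (at least 99.997% of values whole within 0.001 reads in each library), and edgeR's TMM scaling of those reads gave the deposited values' differences again. Genes reaching a value of 1 in 4 or more libraries were tested with limma 3.58.1 (R 4.3.3, trended variance) on log2(value + 1), with all 12 libraries in 1 fit, time as the sole factor, two-sided, and Benjamini-Hochberg adjustment over 11211 genes at 0.05. That scale understates changes of low genes. The limma fit was run on simulated data with changes set only in genes with a mean of at least 10. This does not cover low genes such as Mmp9 and Mmp2, and its outcome is not reported here. Correlations used 100000 permutations, two-sided. Alternatives were pseudocounts of 0.25 and 4, no filter or a mean of at least 10, 4 other scalings, array weights, fits of 2 groups, a replicate block, a Y-linked term, edgeR 4.0.16 (quasi-likelihood), DESeq2 1.42.0, and libraries left out.

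Members, lists and tests were chosen with earlier results of these data known. Named by rule were Mmp8, Mmp9, Mmp2, Timp3 and Htra1, each member past the threshold, the 2 most abundant tested members of each family, the 5 genes most like each of those 5 (those for Mmp2 are not reported here), and called genes of the pathway lists. Other members are named as counts or ranges, or, for Mmp11, Mmp12, Mmp13, Mmp16, Mmp19, Adamts15 and Adamts16, after their values were seen. Exon overlaps came from GENCODE M21, whose build differs from mm9. Floors of 3 reads cover counting error only. PCR duplicates are not separated from independent molecules.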

Additional observations from a re-analysis of the deposited data

Results flagged for a closer look

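Among the 11 named genes, 33 sets of 4 libraries (a gene at a time point) were screened for a single library far from the other 3, and 5 sets were picked out by Dixon's test, where chance picks about 1 in 20. In 4 of them 1 library had reads and the other 3 had none, and any such set is picked out whatever its value, so that rate does not apply to them. These were Mmp8 at 6h, with 0.747 in replicate 1, Mmp9 at 6h, with 3.06 in replicate 4, Mmp2 at Day7, with 1.51 in replicate 1, and Adamts1 at Day7, with 0.344 in replicate 1. In the other, Mmp23 at Day7, replicate 3 was at 0 and the other 3 libraries were between 4.68 and 6.51.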

How the results depend on the processing

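The number of members lower at Day7 than at Day1 was 5. It was 3 with a pseudocount of 0.25, 0 with no filter, 8 with median-of-ratios scaling, 14 on the scale of all reads or of reads outside haemoglobin, 11 with array weights, 12 in a fit of 2 groups, 0 with a term for Y-linked reads, 0 in edgeR and 12 in DESeq2, and 0 to 8 with 1 library left out. Array weights called 1 higher (Mmp9) in each comparison with Day7, and scaling to all reads called 1 higher at Day1 than at 6h (Adamts2). The number lower at Day7 than at 6h was 1. It was 0 with a pseudocount of 4, with no filter, when scaled to all reads, in a fit of 2 groups and with the Y-linked term, 3 with array weights, 2 in edgeR, 6 in DESeq2, 2 without the 2 libraries with the fewest genes, and 0 to 2 with 1 library left out. The F test called 1 member, but 0 with no filter, the Y-linked term or edgeR, 13 on those 2 scales, 12 with array weights, 5 in DESeq2, 2 without the 2 libraries with the fewest genes, and 0 to 5 with 1 library left out. With the replicate number as a block, 2 members were lower at Day7 than at 6h and the F test called 2, and the other counts stayed within 1.5 times. Libraries with the same number correlated at -0.23 to 0.12 after removal of group means (1 of 12 pairs above 0.1), so the numbers were not taken to pair them.

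Day1 versus 6h differences near 0 changed sign in some settings. Mmp9 (0.00) was -0.0533 with a pseudocount of 4, -0.13 with the Y-linked term, -0.96 in edgeR, -0.59 in DESeq2, -0.17 without the 2 libraries with the fewest genes and -0.17 to 0.17 with 1 library left out. Htra1 (-0.02) was 1.32 on the scale of all reads, 0.83 on that of reads outside haemoglobin and -0.64 to 0.68 with 1 library left out. Adamts1 (0.45) was -0.24 with array weights, -0.64 in edgeR, -0.58 in DESeq2, -0.69 without the 2 libraries with the fewest genes and -0.69 to 1.28 with 1 library left out. With the Y-linked term Mmp2 was 0.58 for Day7 versus Day1 (main -0.47) and Adamts2 0.20 for Day7 versus 6h (main -1.32). None of these differences passed. The cause of these moves was not tested. Scaling moved the median of all genes for Day7 versus Day1 from -0.48 to -0.75 (median of ratios), -1.77 (all reads) and -1.60 (outside haemoglobin), and that of the members from -2.56 to -2.70, -3.69 and -3.48. Mmp9 could be tested in 22 of 27 settings. Low values were coarsest in Day7 replicate 3, where 1 read was worth 0.617.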
